A study of Mus musculus with 24 samples.

Results

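Among the candidate enhancers listed for normal granulocyte-monocyte progenitors (GMP), 562 met an enhancer of the leukemia list named k- and none of the list named k+. They were chosen by overlap: a whole GMP region on chromosomes 1 to 19, with chromosome 11 below position 3100000 left out, had to share at least 1 bp with a k- region and 0 bp with any k+ region. They were 562 of the 3164 GMP regions on these chromosomes, or 17.8% (exact 95% interval 16.4 to 19.1%), and 562 of 3332 GMP regions in all. The other GMP regions fell into 1003 kept in both leukemia lists, 246 kept in k+ only and 1353 found in neither. X, Y and the left-out span held 168 GMP regions, of which 8 would have met the overlap rule, 2 on X and 6 in the span of chromosome 11.

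The study profiled chromatin by ChIP-seq in 3 C57BL/6 mouse bone marrow populations: normal GMP, leukemia stem cells (LSC) and mature AML cells (mAML). The leukemia is labelled MLL-AF10, a fusion of the histone methyltransferase MLL with AF10. Each had 1 library each of H3K27ac, H3K4me1, H3K4me3 and input, with no treatment labelled. Other LSC libraries of the series, untreated or treated with the p300/CBP inhibitor A-485 for 24, 48 or 72 h, are not known to enter the lists used here. The values used are the coordinates of deposited region lists, not reads, and no list had a replicate. The labels do not say which of LSC and mAML the names k+ and k- stand for, nor which marks made a region an enhancer. Leukemia cells were cultured with WEHI-conditioned medium, while no culture is stated for GMP, and chromatin was pooled before the immunoprecipitation, per the labels' protocols. The lists hold no marker levels, so the identity of the cells was not checked.

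GMP are bone marrow progenitors that give rise to neutrophils and monocytes, and in mouse models MLL fusions can turn such progenitors into leukemia stem cells. Enhancers are stretches of DNA that raise transcription of genes at a distance. Active ones usually carry H3K27ac and H3K4me1, and their use changes as blood cells mature. Genes near these regions and their DNA sequence were not analysed here, because the gene and sequence tables at hand are for another build (GRCm38) than the mm9 coordinates of the lists.

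Regions kept in k- only were the larger of the classes kept in 1 list. They made up 31.0% (28.9 to 33.2%) of the 1811 GMP regions met in leukemia, 35.9% (33.5 to 38.3%) of the 1565 that met k-, and 69.6% (66.3 to 72.7%) of the 808 that met 1 leukemia list and not the other. The k- list is the longer one, with 13856 regions covering 16.9 Mb against 9404 regions covering 10.4 Mb in k+, so the excess over k+ only cannot be told apart from the lengths of the lists. With k- held to as many regions as k+, keeping its widest, 484 members were left. This matched the number of regions and not the bp they cover, so the part of list length was not tested by it. In bp, the members covered 402 kb, and 70.4% of it lay inside k- regions. In the deposited list of regions maintained in tumor, all 575 pieces of members inside k- were present with identical coordinates, and they made up 30.7% of that list's 1870 regions.

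Members were middling in width. Their share of all GMP regions varied little with width, while their share of the GMP regions met in leukemia was lower among the widest. Their median width was 600 bp (quartiles 400 and 1000 bp, range 200 to 4600 bp). The quartiles were the same for regions kept in k+ only, while regions kept in both had a median of 800 bp (400 and 1400 bp) and those in neither 400 bp (200 and 600 bp). Of the members, 269 were 200 or 400 bp wide and 143 were 1000 bp or wider.

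Across GMP regions of rising width, the share kept in k- only stayed between 12.7 and 20.0%. It was 15.6% (13 to 18.4%) of the 725 regions of 200 bp, 20.0% (16.8 to 23.6%) of the 549 of 800 to 1000 bp, and 12.7% (6.96 to 20.8%) of the 102 of 2200 bp or more, and these intervals overlapped. Over the same steps the share kept in both went from 17.0% (14.3 to 19.9%) to 71.6% (61.8 to 80.1%), and the share in neither from 60.3% (56.6 to 63.9%) to 8.82% (4.11 to 16.1%). Regions kept in both were thus more frequent, and regions in neither less frequent, among wide GMP regions. Of the GMP regions met in leukemia, members made up 39.2% (33.6 to 45.1%) at 200 bp and 14% (7.66 to 22.7%) at 2200 bp or more, with intervals apart. Among GMP regions met by a single leukemia list, the share whose list was k- lay between 64.2 and 74.3% at every width. By length alone, a wide GMP region can meet more of either list, and its part in these shares was not tested.

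**Figure D1:**
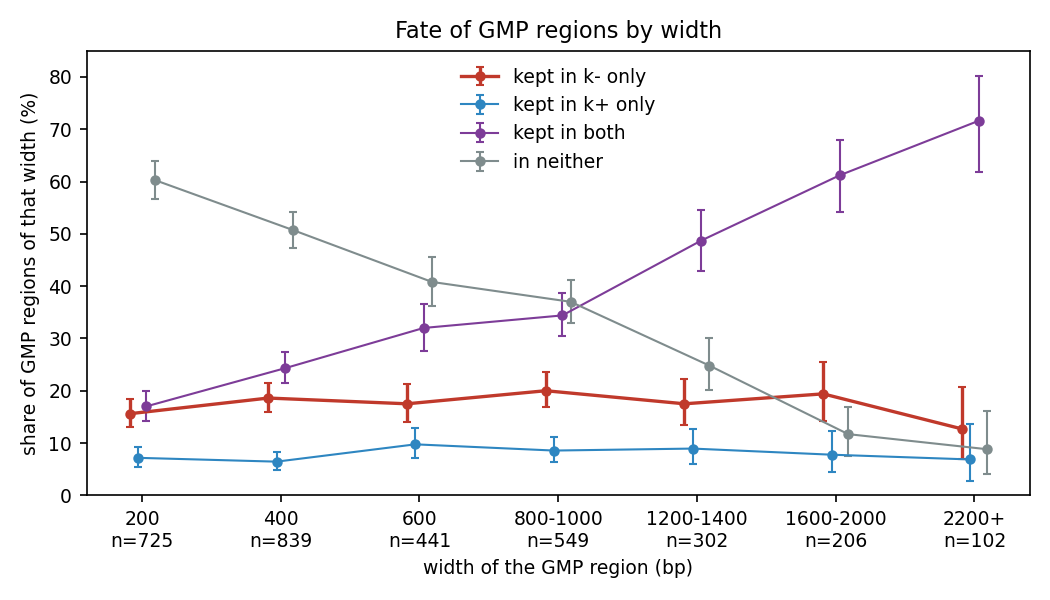
Share of GMP regions of each width (x axis, bp, with the number of regions) that were kept in k- only, in k+ only, in both or in neither (y axis, %). Points are shares and bars exact 95% intervals for counting error; the k- only share stayed between 12.7 and 20.0%, while the share kept in both went from 17.0 to 71.6%.

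Most members lay wholly inside a k- region, and the k- region was usually the wider of the pair. The whole GMP region was inside k- for 359 members, or 63.9%, and 50% or more of it for 477, or 84.9%. The rule used this overlap, so these values describe the members and test nothing. A single k- partner was found for 549 members and a pair of partners for 13. The k- partner was wider than the GMP region in 420 members, as wide in 40, and of the pairs with a single partner 15 had the same coordinates. In 62 members the k- region sat inside the GMP region, and in 128 the pair was staggered.

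The k- partners of members were narrower than those of GMP regions kept in both. The widest partner of a member had a median width of 1400 bp (quartiles 800 and 2400 bp), against 2400 bp (1400 and 3800 bp) for regions kept in both. The midpoints of GMP region and k- partner lay a median of 300 bp apart in members and 400 bp in regions kept in both. The whole region lay inside k- in 71.8% (68.9 to 74.6%) of regions kept in both, above the interval of the members' share (59.8 to 67.9%). Wide k- regions met k+ more often, so the rule itself bears on these widths and overlaps.

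Many members stood at the edge of the rule. All region edges lie on a grid of 200 bp, so 200 bp is the smallest overlap a region can have. In 98 members, or 17.4%, only 200 bp of a wider GMP region reached into k-. At the other edge, 49 members (8.72%) touched a k+ region without sharing a base, and another 44 (7.83%) lay 200 bp from one. Touching or within 200 bp of k+ were thus 16.5% of members. Regions kept in k+ only were more often at this edge: 20.7% touched a k- region and 33.3% had one touching or within 200 bp. Just outside the rule, 97 of the 1003 regions kept in both, or 9.67%, were wider than 200 bp and had 200 bp inside k+. Of the 1353 regions in neither list, 153, or 11.3%, had a k- region within 200 bp and no k+ region so near.

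The smallest overlaps, 200 bp or 10% of a GMP region of 2000 bp, were found at 3 members. On chromosome 2 in band qB, the GMP region from 45100801 to 45102800 met a k- region of 600 bp at its right end. On chromosome 5 in band qG1.1, the region from 125871601 to 125873600 met a k- region of 600 bp at its left end. On chromosome 19 in band qA, the region from 16214001 to 16216000 met the last 200 bp of a k- region of 2000 bp, and a k+ region lay 400 bp away. In these cases most of the GMP region was in neither leukemia list.

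Members ranged from touching a k+ region to lying megabases from any. The median gap was 8300 bp, with quartiles of 600 and 54450 bp. Gaps over 1 and up to 25 kb made up the largest of the groups described here, with 192 members, or 34.2%. Within 1 kb of a k+ region lay 171 members, or 30.4%, within 25 kb 363, or 64.6%, and within 100 kb 465, or 82.7%. The remaining 97 members had no k+ region within 100 kb. Regions kept in k+ only had a median gap of 1500 bp to k-, and 46.7% of them had a k- region within 1 kb. The k- list is longer than the k+ list, and its part in these gaps was not tested.

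The members within 1 kb of a k+ region mostly lay on k- regions that also met a k+ region. Whether that was the k+ region nearest to the member was not checked. In 145 members, or 25.8% (22.2 to 29.6%), the k- partner overlapped a k+ region outside the GMP region. Of the 171 members within 1 kb of k+, 137 were of this kind, against 8 of the 192 with a gap over 1 and up to 25 kb. A k+ region that meets the k- partner cannot lie far from the member, so part of this contrast is built in. Counted over the 548 distinct k- partners, 142, or 25.9%, met a k+ region, while 39.5% of all 13856 k- regions did. The rule keeps k+ off the GMP region itself, so a lower share among partners was built in, and nothing is read from it. The label "kept in k- only" holds at these members for the GMP region itself and not for the whole k- region on it.

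Partner width went along with this. A k+ region was met by 3 of 130 partners of 200 to 600 bp, by 16 of 159 of 800 to 1400 bp, by 56 of 164 of 1600 to 2800 bp and by 67 of 95 of 3000 bp or more. In the same order these are 2.31, 10.1, 34.1 and 70.5%. Among k- regions that met no GMP region the shares were 17.3, 37.3, 64.2 and 85.4%, so the order by width was not particular to partners, and the lower level among them is built into the rule. The median partner width was 2400 bp for members within 1 kb of k+ and 1400, 1200 and 1400 bp for those with gaps over 1, over 25 and over 100 kb. The members within 1 kb of k+ were also narrower, with a median of 400 bp against 600 bp in each of the other groups, and 71.3% (63.9 to 78.0%) of them lay wholly inside k-, against 60.4 to 60.8% of the others, whose intervals (50.4 to 70.6% at the widest) overlapped that of the first group.

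**Figure D2:**
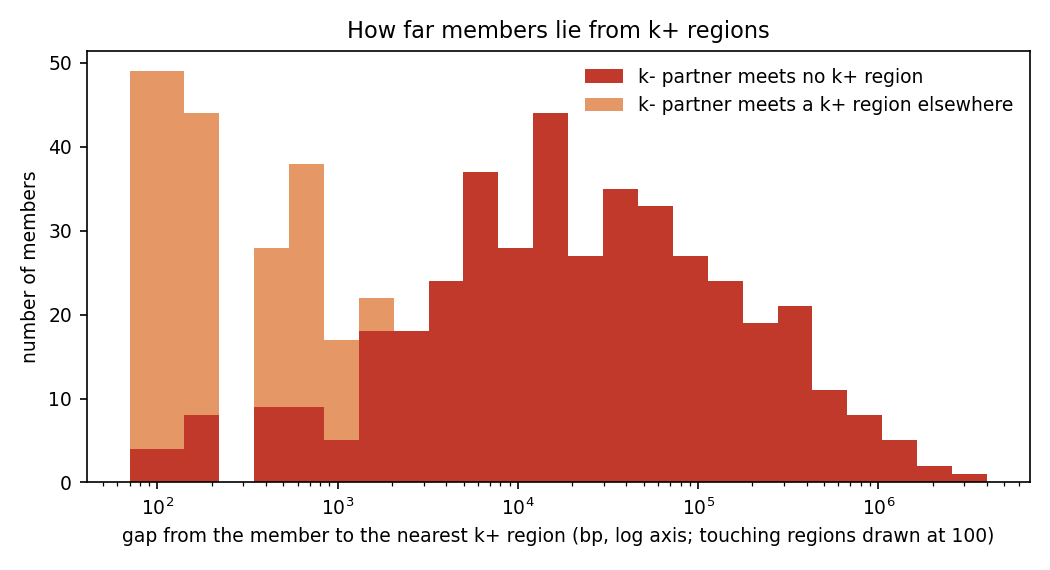
Number of members (y axis) by the gap to the nearest k+ region (x axis, bp, log scale, touching regions drawn at 100), coloured by whether the k- partner meets a k+ region elsewhere. Nearly all of the latter lie at gaps of 1 kb or less (137 of 145), and the other members spread out to 3318400 bp. A k- partner that meets k+ keeps a k+ region near the member, so part of this is built in.

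Coverage around the midpoint of members showed a narrow k- peak and a k+ trough with low shoulders. A k- region covered the midpoint in 78.8% of members, 36.4% of points 1 kb to either side and 7.92% at 5 kb. A k+ region covered 0 midpoints, 6.05% of points at 0.5 kb, 9.52% at 1 kb and 5.69% at 5 kb. The trough follows from the rule, and so does a k- peak, since each member had to meet k-. Beyond the GMP region, the k- values include the same k- partners, on whose widths the rule bears. The k+ values there do not follow from it directly. Regions kept in both had higher k- coverage at the same distances, with 89.0% at the midpoint, 56.9% at 1 kb and 12.6% at 5 kb. These regions and their k- partners were also wider than those of members, and the part of width was not tested. At 5 kb, k+ coverage was 9.32% around regions kept in both and 2.77% around regions in neither. Regions kept in k+ only, with 5.49%, were close to the members' 5.69%. They also had the same shape for the other list, with k- coverage of 0 at the midpoint, 18.3% at 1 kb and 7.93% at 5 kb.

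**Figure D3:**
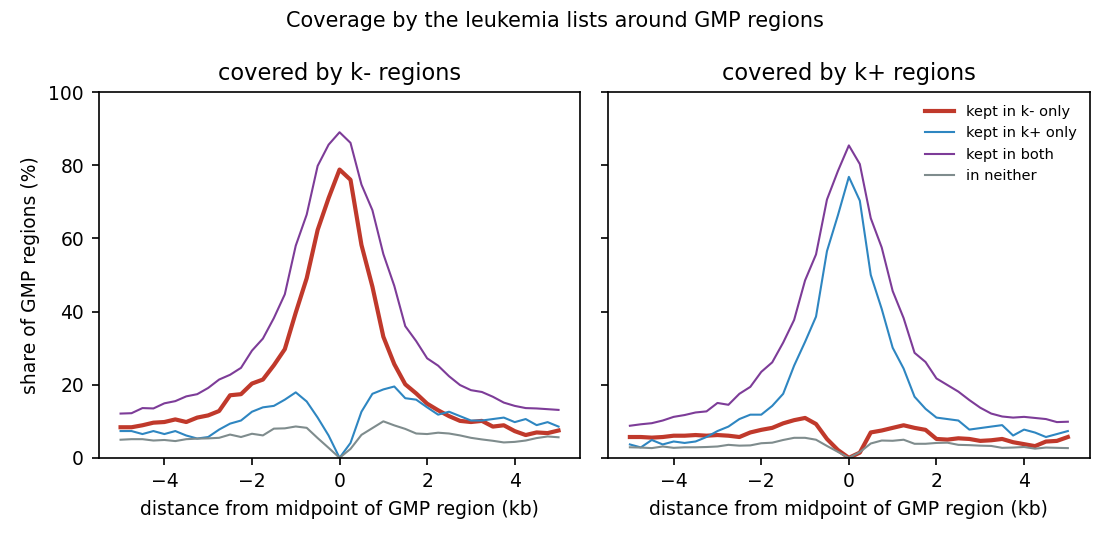
Share of GMP regions (y axis, %) with a k- region (left) or a k+ region (right) at each distance from their midpoint (x axis, kb), for the 4 classes. Members have k- coverage of 78.8% at the midpoint and 36.4% at 1 kb, and k+ coverage that is 0 at the midpoint and 9.52% at 1 kb.

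Members had k+ regions as well as k- regions in their neighbourhood. Counting only leukemia regions that met no GMP region, 401 members (71.4%, 67.4 to 75.1%) had a k- region within 25 kb and 331 (58.9%, 54.7 to 63.0%) had a k+ region. Both kinds were near 288 members, k- alone near 113 (20.1%), k+ alone near 43 (7.65%) and neither near 118. The shares with k- alone and k+ alone were 20.7 and 6.43% for regions in neither list. They were 21.1 and 8.94% for regions kept in k+ only, and 15.5 and 6.98% for regions kept in both. What the longer k- list adds to these counts was not tested. Regions kept in both were more crowded: 80.2% (77.6 to 82.6%) had a k- and 71.7% (68.8 to 74.5%) a k+ region in this window. Regions in neither list were less so, with 59.2% (56.5 to 61.8%) and 44.9% (42.3 to 47.6%). Regions kept in k+ only, at 75.6% (69.7 to 80.8%) and 63.4% (57.1 to 69.4%), had intervals that overlapped those of members.

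The k- regions around members met k+ at a share whose interval held that of k- regions in general. This count left out every leukemia region on a GMP region, and every k- region that met a k+ region on a GMP region. The rule used none of the regions counted. It did choose the classes by k+ at their centre, so it can still bear on neighbouring shares. Within 25 kb of members lay 911 such k- regions, of which 326, or 35.8% (32.7 to 39.0%), met a k+ region, against 35.2% of all 12052 on the autosomes. Within 5 kb the share was 31.7% (26.2 to 37.5%) and within 100 kb 36.0% (33.9 to 38.0%), so the intervals held the overall share at these distances. Around regions kept in both it was 41.5% (39.0 to 43.9%) within 25 kb and 40.2% (38.5 to 41.8%) within 100 kb. The interval at 100 kb lay apart from that around members, while those at 5 kb overlapped (36.1 to 45.1% for regions kept in both). At the window between 5 and 25 kb in the plot of neighbour sharing, the intervals lay apart as well, with 33.2% (29.2 to 37.4%) for members and 41.7% (38.6 to 44.9%) for regions kept in both. Among k- regions of 800 bp or more, they lay apart at that window, with 48.8% (43.0 to 54.7%) for members and 60.2% (56.0 to 64.3%) for regions kept in both. For these wider k- regions the intervals overlapped at 25 kb, with 52.0% (47.5 to 56.4%) and 57.0% (53.8 to 60.3%). Neighbouring regions are not independent, and these intervals are too narrow. Counting also the k- regions that met a k+ region on a GMP region, 36.6% met k+ within 25 kb of members. That share was 43.9% for regions kept in both and 36.0% over all such k- regions. Around regions kept in k+ only it was 64.8% within 5 kb, against 33.3% with those k- regions left out.

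**Figure D4:**
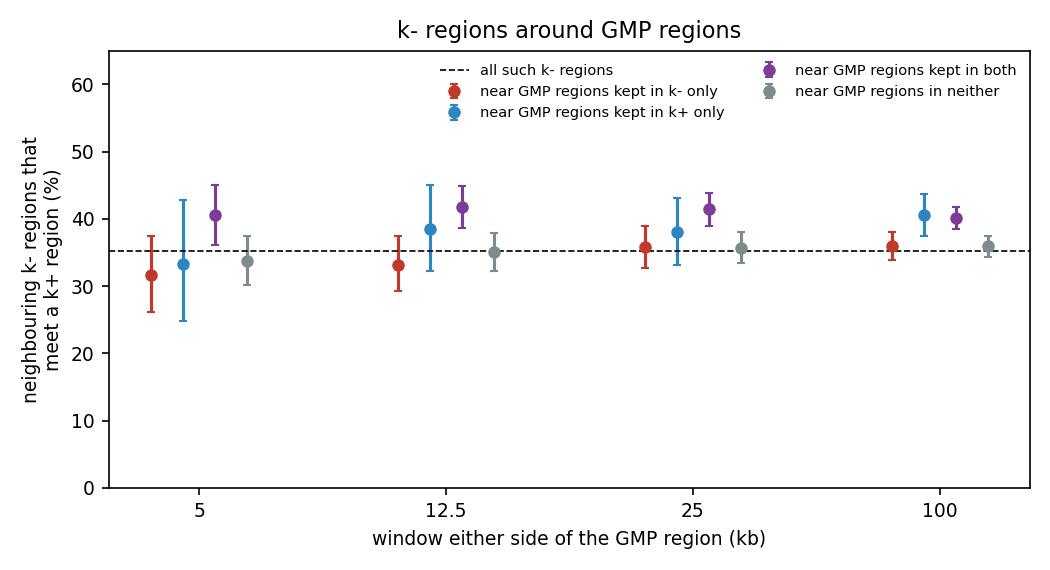
Share of neighbouring k- regions that meet a k+ region (y axis, %), leaving out leukemia regions on a GMP region, within windows of 5 to 100 kb around GMP regions (x axis, kb) of the 4 classes. Also left out are k- regions that meet a k+ region on a GMP region. Bars are exact 95% intervals and the dashed line is the share over all such k- regions, 35.2%; the values around members (31.7 to 36.0%) have intervals that hold the line.

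Members were mostly scattered singly. Members were joined up to the usual stitching distance of super-enhancer calling, which lies between the 5 and 25 kb of the alternatives. Of the 562, 491 stood alone and 71, or 12.6% (10 to 15.7%), lay in 33 clusters, of which 4 held 3 or more. Another GMP region of any class was within the same distance of 199 members, or 35.4% (31.5 to 39.5%), against 45.9% (42.7 to 49.0%) of regions kept in both and 32.7% (30.2 to 35.3%) of those in neither. The nearest of these neighbours was itself a member in 68 cases, or 34.2% (27.6 to 41.2%), kept in both in 60, in neither in 60 and kept in k+ only in 11. Of all GMP regions used, 17.8% were members, 31.7% kept in both, 42.8% in neither and 7.77% kept in k+ only. A nearest neighbour of the same class was also found for 62.2% (57.6 to 66.6%) of regions kept in both with a neighbour, 61.4% (56.7 to 66.0%) of those in neither and 28.1% (19.1 to 38.6%) of those kept in k+ only. Most member pairs shared an element: for 52 of the 68, both members lay on the same k- region, and for 16 on different ones. GMP regions on the same k- region all meet k-, so part of the share of member neighbours is built into the rule. No grouping of members is read from it.

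The cluster with the most members lay on chromosome 14 in band qD3, from 79921201 to 79936200. Its 4 GMP regions, of 400 to 1000 bp, were the only GMP regions in 15 kb, all were members, and 4 k- and 3 k+ regions lay among them. The first pair, from 79921201 to 79922200 and from 79922601 to 79923000, sat in a k- region of 2800 bp. The next, from 79930001 to 79930600, touched a k+ region, and the last, from 79935201 to 79936200, had 400 of its 1000 bp in k- and a k+ region 200 bp away. The lists interleaved here, and members were set apart from k+ regions by short gaps.

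A cluster elsewhere on chromosome 14, in band qA3, was of the opposite kind. From 20787801 to 20790200, 3 GMP regions of 400 bp each lay in 1 k- region of 4800 bp (20787401 to 20792200), and the nearest k+ region was 390400 bp from the cluster. On chromosome 1 in band qH6, from 193021601 to 193025600, 3 members of 200 to 1000 bp shared a k- region of 5200 bp, with the nearest k+ region 23400 bp away. In both loci GMP had several short regions where k- had 1 wide one.

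On chromosome 13 in band qA3.1, from 24726001 to 24733800, 3 members of 200 bp lay in k- regions of 4400 and 2000 bp, and the first touched a k+ region. The fifth cluster, on chromosome 19 in band qC1 from 32247001 to 32256400, held 2 members of 600 and 1800 bp, 4 k- regions and 0 k+ regions, with the nearest k+ region 41200 bp away.

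The widest member, 4600 bp on chromosome 15 in band qD3 from 74759801 to 74764400, was only grazed by k-. Its k- partner of 8800 bp (74751601 to 74760400) covered 600 bp, or 13% of it, at the left end. A k+ region of 6600 bp lay inside that partner and ended 400 bp before the member. On chromosome 11 in band qA2, the second widest member (16902601 to 16905800, 3200 bp) had 50% inside a k- region of 1600 bp and a k+ region 200 bp away. The third, on chromosome 1 in band qD (89534601 to 89537600, 3000 bp), lay wholly inside a k- region of 5200 bp, with k+ 7400 bp away.

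Of the members of 2800 bp among the 5 widest, that on chromosome 2 in band qC1.1 (59913401 to 59916200) touched a k+ region and had 50% inside k-. That on chromosome 11 in band qB1.3 (59353801 to 59356600) had 35.7% inside a k- region of 1400 bp and no k+ region within 1234400 bp, while 4 k- regions that met no GMP region lay within 25 kb. The 5 widest members thus lay inside k- over anything from 13% of their length to the whole.

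The members farthest from k+ had few k- regions near them. On chromosome 1 in band qA3, the region from 17598201 to 17599400 (1200 bp, 83.3% inside k-) lay 3318400 bp from the nearest k+ region. Its neighbour in this ranking, from 16560601 to 16561200 in the same band, lay 2282000 bp away and had 200 of its 600 bp in k-. Next came a region of 400 bp on chromosome 18 in band qE4 (84769601 to 84770000), whose k- region had identical coordinates, at 1691200 bp. The other 2 were on chromosome 2 in band qG3 (150500001 to 150500400, at 1298000 bp) and chromosome 19 in band qB (23208801 to 23210600, at 1295000 bp). Counting k- regions that met no GMP region, 0 or 1 lay within 25 kb of each of these 5 members. So far from k+, a nearby k- region cannot meet k+, and part of this is therefore built into the choice.

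Members far from k+ more often had no k- region off the GMP list near them, and part of this is built into the grouping by gap. A k- region that meets k+ cannot lie within 25 kb of a member more than 100 kb from k+. Of the k- regions off the GMP list within 25 kb of members, 36.6% met k+. Of the 97 members more than 100 kb from k+, 57, or 58.8%, had 0 k- regions within 25 kb that met no GMP region, against 24 of the 192 with gaps over 1 and up to 25 kb. With the same count, which leaves out k- regions on GMP regions, 13 members lay more than 25 kb from k+ with 3 or more k- regions within 25 kb. Among them were the region on chromosome 1 in band qD from 97494601 to 97496200, wholly inside a k- region of 2800 bp with 4 such k- regions near and k+ 128800 bp away, and that on chromosome 4 in band qA1 from 3652201 to 3652400. Both were picked after their values were seen.

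The widest k- partners mostly spanned k+ regions too. The widest, 11600 bp on chromosome 9 in band qC (66724801 to 66736400), held the member from 66729801 to 66731000, which touched the end of a k+ region of 2800 bp. A second k+ region, of 2400 bp, reached past the other end of the same k- region. On chromosome 4 in band qD3, the member from 134318201 to 134320200 lay inside a k- region of 9400 bp with k+ 200 bp away. The partner of 8800 bp is that of the widest member. Partners of 8400 bp on chromosome 11 in band qA3.2 and of 8000 bp on chromosome 6 in band qG1 held the members from 22742401 to 22744000 and from 134063201 to 134063600, with k+ at 1200 and 200 bp. All 5 of these partners met a k+ region. Among k- regions of 3000 bp or more, 70.5% of partners and 85.4% of those that met no GMP region did so, and nothing particular to these members is read from it.

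**Figure D5:**
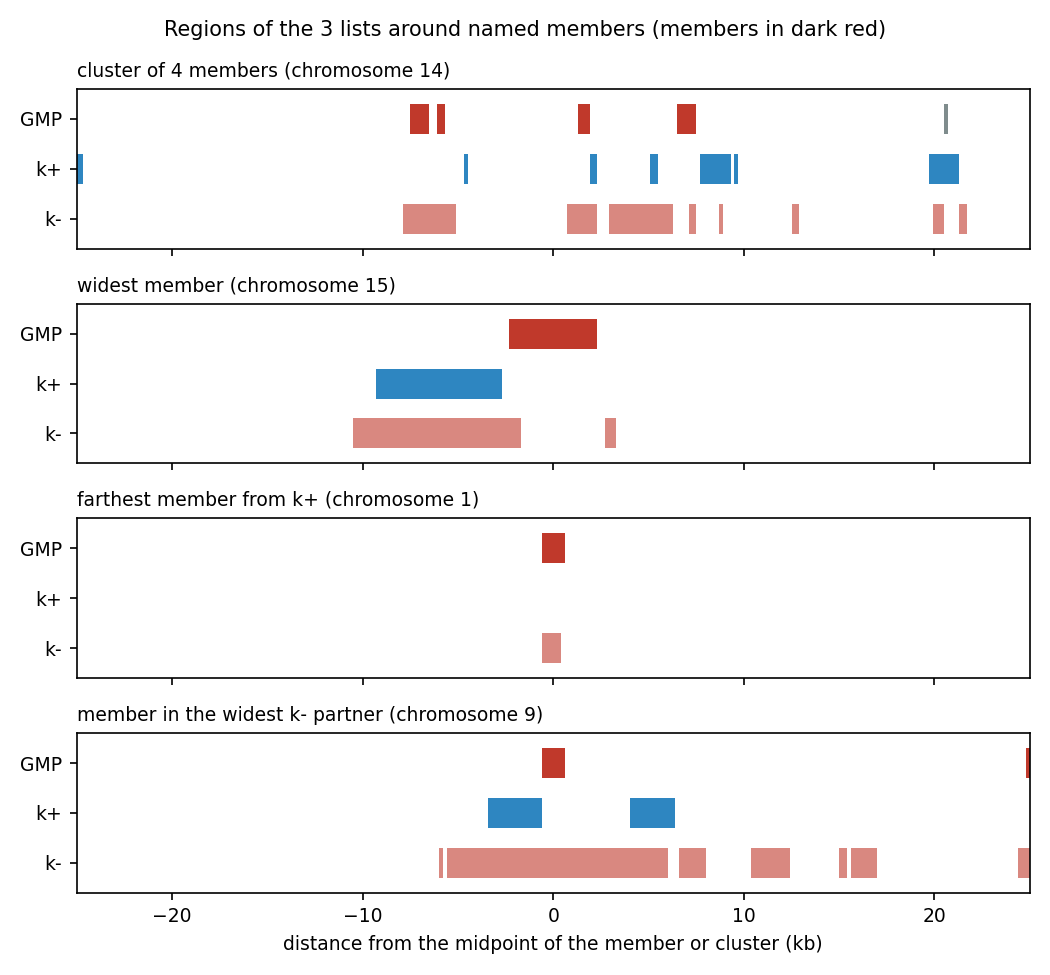
Regions of the GMP, k+ and k- lists (rows) around 4 named loci, by distance from the midpoint of the member or cluster (x axis, kb), with members in dark red. The lists interleave in the cluster on chromosome 14, the widest member is grazed by a k- region that also spans a k+ region, the farthest member lies alone with its k- region, and the k- region of 11600 bp spans a member between k+ regions.

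Members were found on every autosome, from 15 on chromosome 15 to 47 on chromosome 1. As a share of the GMP regions of a chromosome they ran from 11.1% (6.72 to 17.0%) on chromosome 4 to 23.9% (16.9 to 32%) on chromosome 14. Of the 19 intervals, that of chromosome 4 alone did not hold the share over all GMP regions used, 17.8%. Per 100 Mb, chromosome 11 had the most members, 36.9, and chromosome 4 the fewest, 11.6. The density of GMP regions enters these values. On chromosome 11, members were 20.3% (15.2 to 26.2%) of 222 GMP regions, an interval that held the share over all.

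Members lay in light and dark chromosome bands in about the proportions of all GMP regions. Light bands on Giemsa staining, which are as a rule richer in genes, held 46.1% (41.9 to 50.3%) of members, 46.6% (44.9 to 48.4%) of all GMP regions used, 47.5% of k- regions and 41.2% of the autosomal sequence. The darkest bands held 22.6% (19.2 to 26.3%) of members and 21.3% (19.9 to 22.7%) of all GMP regions used, against 31.2% of the sequence.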

How the data were processed

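Coordinates of 6 region lists, deposited by the authors for the whole series, were used as given: start and end in bp. They carry 0 columns of a score or other signal, and depth is therefore unknown. The submitters' processing notes name BWA, Picard, MACS2, HOMER and deepTools and the build mm9, with roles and versions not given in the sources used here. All regions end within mm9 chromosome lengths, and 12 GMP regions run beyond those of mm10. Positions are mm9, counted from 1.

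Members, classes and lists were chosen with earlier results of these data known. Overlap of at least 1 bp was computed with pandas 2.3.3, SciPy 1.17.1 and NumPy 2.4.6 under Python 3.11.15 (figures with matplotlib 3.10.9), tested on planted regions, and bedtools 2.31.1 found the same 562 members. Bands came from circlize 0.4.16 and chromosome lengths from GenomeInfoDb 1.38.1 (R 4.3.3). Intervals are exact Clopper-Pearson 95% intervals. They cover counting error only, and regions are not replicates, so no p-value is given. Named regions were the 5 widest members, the 5 farthest from k+, the 5 with the widest k- partner, the 5 clusters with the most members and the 3 smallest overlaps with k- (ties by share of the region, then position). Coverage profiles, chromosome bands, sharing of neighbouring k- regions and groups by gap were added after seeing the data.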

Additional observations from a re-analysis of the deposited data

How the results depend on the processing

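The number of members was within 1.5 times of 562 under 7 of 9 alternatives. It was 146 when 50% of both the GMP and the k- region had to be shared, and 329 when 50% of the GMP region had to lie inside k- with no k+ region within 1 kb, an alternative added after seeing the data. The others gave 391 (no k+ within 1 kb), 417 (no k+ on the k- partners either) and 452 (regions of 400 bp or more). Further values were 477 (50% of the GMP region in k-) and 484 (k- held to the number of regions in k+). The last were 513 (touching counted as overlap, added after seeing the data) and 570 (all chromosomes). The median gap to k+ was 21400 bp for members whose k- partners met no k+ region, by construction, an alternative also added after seeing the data. The k- partner had a k+ region within 1 kb in 30.8% of members. Another GMP region was within 5 kb of 25.8% and within 25 kb of 44.1%. As a share of GMP regions met in leukemia, members ran from 19.6% on chromosome 4 to 44.2% on chromosome 18. The median width of members, 600 bp, was the same with no k+ region within 1 kb, and pieces inside k- had a median of 400 bp. Clusters numbered 30 when joined at 5 kb and 39 at 25 kb, against 33. No score allowed a stricter threshold, sequence features and genes were not run, and leaving out replicates was not possible. No paired analysis was possible because all groups hold 1 sample.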
